A study of Saccharomyces cerevisiae with 6 samples.

Results

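The genes described here encode the Ski complex and the enzymes of cytoplasmic mRNA decay in budding yeast: SKI2, SKI3, SKI8, SKI7, XRN1, DCP1 and DCP2. They were listed by name, mapped through their systematic names, and all 7 were found among the 6362 genes measured. The set was selected on the measured ratio of SKI3 in the parental strain, and the other 6 genes were added as its partners, so SKI3 values are described with no test, as are all values of these 7 genes that rest on the parental arrays. For 3 haploid strains of Saccharomyces cerevisiae, total RNA was compared on 6 arrays with 2 colours, 2 per strain, described in the series text as biological replicates. The erg6 deletion strain is MATα his3 leu2 lys2 ura3 with erg6::kanMX4 and lacks the methyltransferase that acts on sterols late in the ergosterol pathway. The snq2 deletion strain is MATα his3 leu2 lys2 ura3 with snq2::kanMX and lacks a drug exporter of the ABC family in the plasma membrane. The parental strain BY4742 is MATα his3 leu2 lys2 ura3, so all groups share these auxotrophic markers. On every array, cells given 0.2 mM of compound 089 for 4 h in YPD at pH 4.8 and 28 °C were set against untreated cells of the same strain. The labels describe 089 as an ethylamide of a bicyclic dioxa-aza octane that carries a benzhydryl and a phenyl group. Treated RNA carried Cy5 and untreated RNA Cy3 on all 6 arrays, and without a dye swap any bias of the dyes at a gene remains in its ratio.

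Cytoplasmic mRNA is degraded from either end after its poly(A) tail has been shortened. In one route Dcp2, stimulated by its cofactor Dcp1, removes the cap and Xrn1 digests the body of the message from the 5′ end. In the other the exosome digests from the 3′ end, fed by the Ski complex, in which the helicase Ski2 and the repeat protein Ski8 are held by the scaffold Ski3, while Ski7 connects that complex to the exosome. The SKI genes were named superkiller because their mutants make more toxin from the killer virus of yeast.

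Values are given on a log2 scale, treated over untreated, as deposited. Base 2 was assumed, and the direction follows the sample titles and the dyes and is likely but not stated. If the ratios ran the other way, all signs would be reversed. As bulk RNA was measured, a change in the share of cells and a change in RNA per cell cannot be told apart. The 2 arrays of a strain had a correlation over genes of r = 0.713 in the erg6 deletion, 0.916 in the snq2 deletion and 0.901 in the parental strain. The median gene lay at -0.11 on both erg6 deletion arrays and within 0.032 of 0 on the others, so values of the erg6 deletion strain relative to its own centre are higher by 0.108 and 0.107. The deleted genes cannot check the labels, since both channels held the same strain: ERG6 had -0.65 and -0.85 on the arrays of the erg6 deletion, against -0.66 and -0.43 on the parental arrays, and SNQ2 had 0.22 and 0.025 on those of the snq2 deletion, against -0.34 and -0.36. The 683 control spots (539 empty, 144 Blank) gave ratios too. The empty spots had medians of 2.11 in the erg6 deletion, 0.55 in the snq2 deletion and 0.70 in the parental strain. Those of the Blank spots were -0.27, -0.22 and -0.29, in that order. The central 95% of all 683 spots ran from -1.87 to 3.57 in the erg6 deletion strain. It ran from -1.43 to 2.00 in the snq2 deletion and from -1.36 to 2.49 in the parental strain. All 6 partners lay inside those limits in every strain, and SKI3 lay outside them in the parental strain. Whether signal of that kind enters the ratio of any member was not tested.

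SKI3 had a high ratio in the parental strain and ratios near 0 in both deletion strains. Its log2 ratios were -0.19 and 0.0021 on the arrays of the erg6 deletion, 0.36 and 0.064 on those of the snq2 deletion, and 3.97 and 3.26 on the parental arrays. The parental arrays did not overlap with the other 4, whose highest value was 0.36. The strain means were -0.09 ± 0.18, 0.21 ± 0.18 and 3.61 ± 0.18 (SE of the fit, n = 2 arrays each), in that order, and the parental mean corresponds to a ratio of 12.2. The erg6 and snq2 deletion strains do not differ beyond their spread in this order. SKI3 ranked 3086 from the top of 6362 genes in the erg6 deletion, 2160 in the snq2 deletion and 9 in the parental strain. In the parental strain 2 of the 683 control spots had a mean ratio as high. The plot of the 7 genes by array shows that no other member approached that value on any array.

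**Figure D1:**
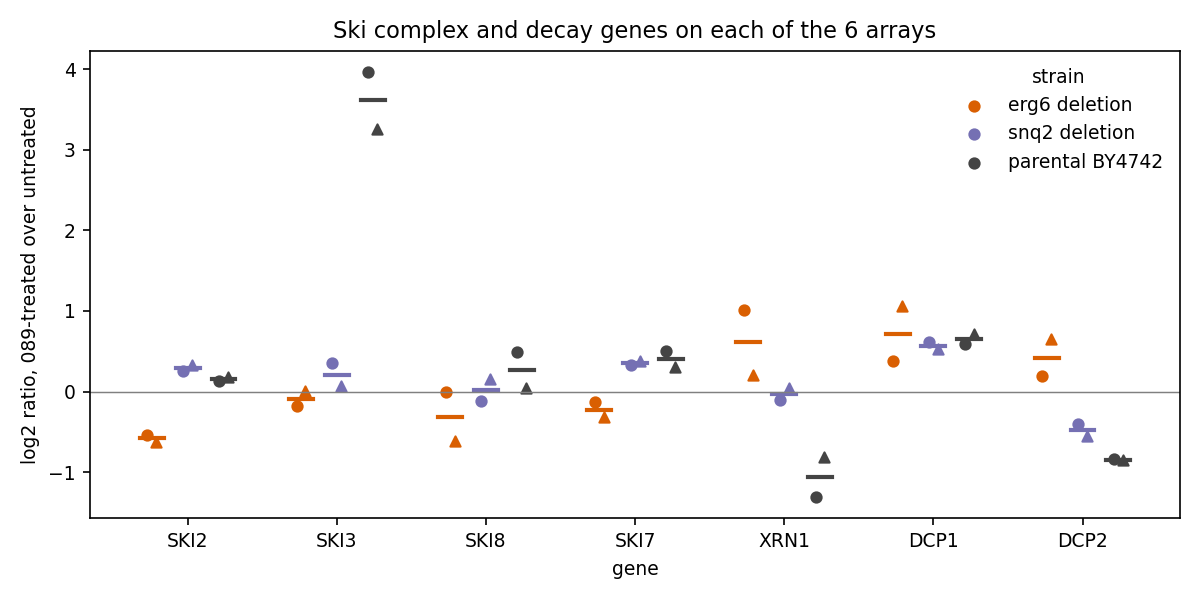
Log2 ratio of 089-treated over untreated cells for 7 genes, with the erg6 deletion, snq2 deletion and parental strains from left to right within each gene. Circles are replicate 1, triangles replicate 2 and bars the mean of 2 arrays. SKI3 stands at 3.97 and 3.26 on the parental arrays and between -0.19 and 0.36 on the others.

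The other parts of the Ski machinery did not share that value. SKI2, the helicase of the complex, had -0.54 and -0.62 on the arrays of the erg6 deletion, 0.26 and 0.33 on those of the snq2 deletion, and 0.13 and 0.18 on the parental arrays. It was low on both erg6 deletion arrays, with no overlap with the other 4 arrays. How common such a separation is among all genes was not counted. SKI2 fell by 0.58 ± 0.08 in the erg6 deletion strain (SE, n = 2 arrays, limma adjusted p = 0.00297, 0.00259 to 0.0448 over 12 alternatives) and by 0.47 relative to the centre of those arrays. It rose by 0.30 ± 0.08 in the snq2 deletion strain (adjusted p = 0.0273, 0.0202 to 0.171), a call lost without either array of that strain (0.0972 and 0.171), without either parental array (0.0620 each) and in a fit to that strain alone (0.0528). Its parental mean was 0.16 ± 0.08.

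SKI8, which encodes the repeat protein of the complex and also acts in meiotic recombination, had -0.0035 and -0.62 on the arrays of the erg6 deletion, -0.12 and 0.16 on those of the snq2 deletion, and 0.49 and 0.039 on the parental arrays. Its replicates were far apart in the erg6 deletion and parental strains. Its mean was -0.31 ± 0.19 in the erg6 deletion (limma adjusted p = 0.214, 0.0507 to 0.991), 0.02 ± 0.19 in the snq2 deletion (adjusted p = 0.935, 0.708 to 0.969) and 0.27 ± 0.19 in the parental strain, and the tests in both deletion strains did not pass.

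SKI7, whose product bridges the Ski complex and the exosome, had -0.14 and -0.32 on the arrays of the erg6 deletion, 0.33 and 0.38 on those of the snq2 deletion, and 0.51 and 0.30 on the parental arrays. The erg6 deletion arrays were below 0 and the other 4 above it. The mean of -0.23 ± 0.10 in the erg6 deletion strain did not pass (limma adjusted p = 0.0978, 0.0956 to 0.441). SKI7 rose by 0.36 ± 0.10 in the snq2 deletion strain (adjusted p = 0.0271, 0.0200 to 0.171), a call lost without replicate 1 (0.119) or replicate 2 (0.171) of that strain. Its parental mean was 0.41 ± 0.10.

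On the erg6 deletion arrays SKI3 minus the median of SKI2, SKI8 and SKI7 was -0.050 and 0.62, on those of the snq2 deletion 0.097 and -0.27, and on the parental arrays 3.47 and 3.08. SKI3 was inside the range of its 3 partners on erg6 deletion replicate 1 and close to that range on both snq2 deletion arrays. On erg6 deletion replicate 2 it had 0.0021, above their range of -0.62 to -0.32. On both parental arrays SKI3 was far above its partners. HBS1, which encodes a translational GTPase related to Ski7, had means of 0.07 in the erg6 deletion, 0.01 in the snq2 deletion and -0.15 in the parental strain. MTR4, which encodes the nuclear helicase related to Ski2, had -4.04 and -2.70 on the arrays of the erg6 deletion, -1.33 and -2.43 on those of the snq2 deletion, and -0.92 and -0.90 on the parental arrays. It was low on all 6 arrays, unlike SKI2. On the erg6 deletion arrays 103 and 153 genes were at or below -3, against 7 and 5 on the parental arrays, and none of the 7 members was among them. Of the other decay genes counted below, MTR4 was among them on replicate 1. CAF130 and CUE2 were among them on replicate 2, both with the identical deposited value of -4.42. Whether that value was measured or set was not tested.

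**Figure D2:**
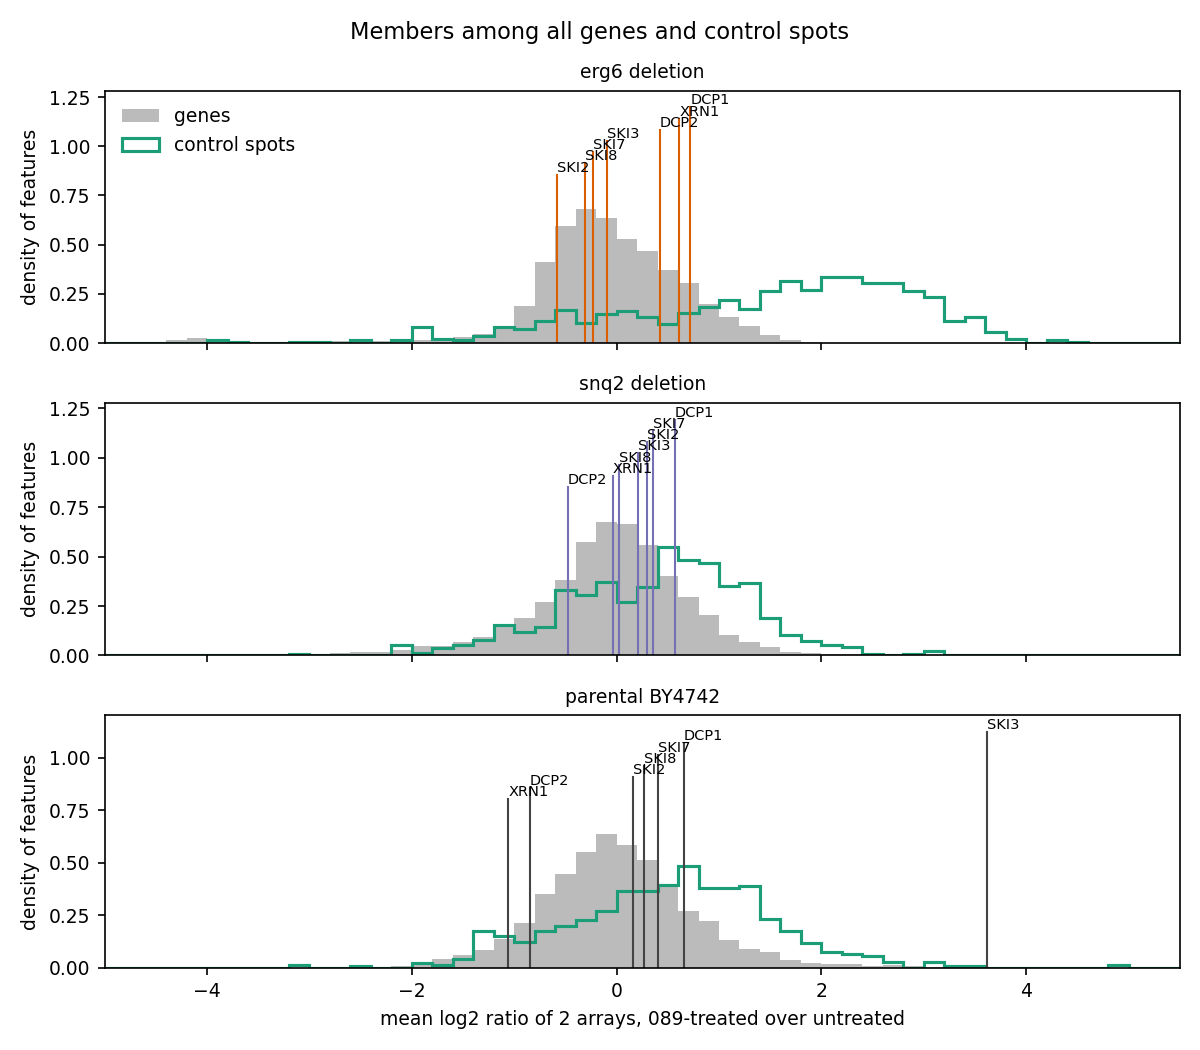
Density of the mean log2 ratio of 2 arrays for genes (grey) and for control spots (green line) in the erg6 deletion, snq2 deletion and parental strains from top to bottom, with a vertical line for each member. SKI3 at 3.61 in the parental strain is far from the bulk of both distributions, and the other members lie inside them.

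The 5 annotated genes closest to SKI3 over the 6 arrays, by Euclidean distance of the log2 ratios, were YIL174W (1.27), GAL2 (1.28), YOL163W (1.31), YGL260W (1.54) and GPB2 (1.54). Their parental means were 3.23, 3.04, 3.41, 2.82 and 2.88. The distance includes the parental arrays, on which SKI3 was selected, so high parental values follow from the ordering and are no separate result. GAL2 encodes the galactose permease, with -0.68 and -0.48 on the arrays of the erg6 deletion, 0.25 and 0.34 on those of the snq2 deletion, and 2.93 and 3.15 on the parental arrays. GPB2 encodes a kelch repeat protein that acts on protein kinase A signalling, with -0.19 and 0.0079 on the arrays of the erg6 deletion, 0.86 and 0.88 on those of the snq2 deletion, and 2.80 and 2.95 on the parental arrays. None of the 6 partners was near SKI3, which likewise follows from their far lower parental values. In the same order over 5825 genes the closest was DCP1 at position 948 and the farthest XRN1 at 5242.

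The genes next to SKI3 in the RefSeq annotation of assembly R64 did not have its pattern. MLC2, a myosin light chain gene, had 0.68 and 0.50 on the arrays of the erg6 deletion, 0.25 and 0.31 on those of the snq2 deletion, and -0.30 and 0.079 on the parental arrays. RPC82, a gene of RNA polymerase III, had -0.80 and -0.87 on the arrays of the erg6 deletion, -0.50 and -0.96 on those of the snq2 deletion, and 0.095 and 0.013 on the parental arrays. Neither gene was high on the parental arrays. Only 98 of the 6362 genes (1.54%) had at least 2 on both of them, so the same holds for most genes.

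The pattern of SKI3 was also counted over all features, with limits chosen after its values were seen: at least 2 on both parental arrays and a mean within 0.5 of 0 in each deletion strain. It held for 4 of the 6362 genes (0.0629%), namely SKI3, SUM1, AI4 and YGL260W, and for 7 of the 683 control spots (1.02%), all of them empty spots. SUM1 encodes a repressor of meiotic genes and AI4 is a mitochondrial intron frame, and their parental means were 2.12 and 2.48. Parental values of at least 2 on both arrays, whatever the deletion strains, were found for 98 genes and 25 control spots. The part of signal unrelated to SKI3 transcripts in its ratio was not tested.

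**Figure D3:**
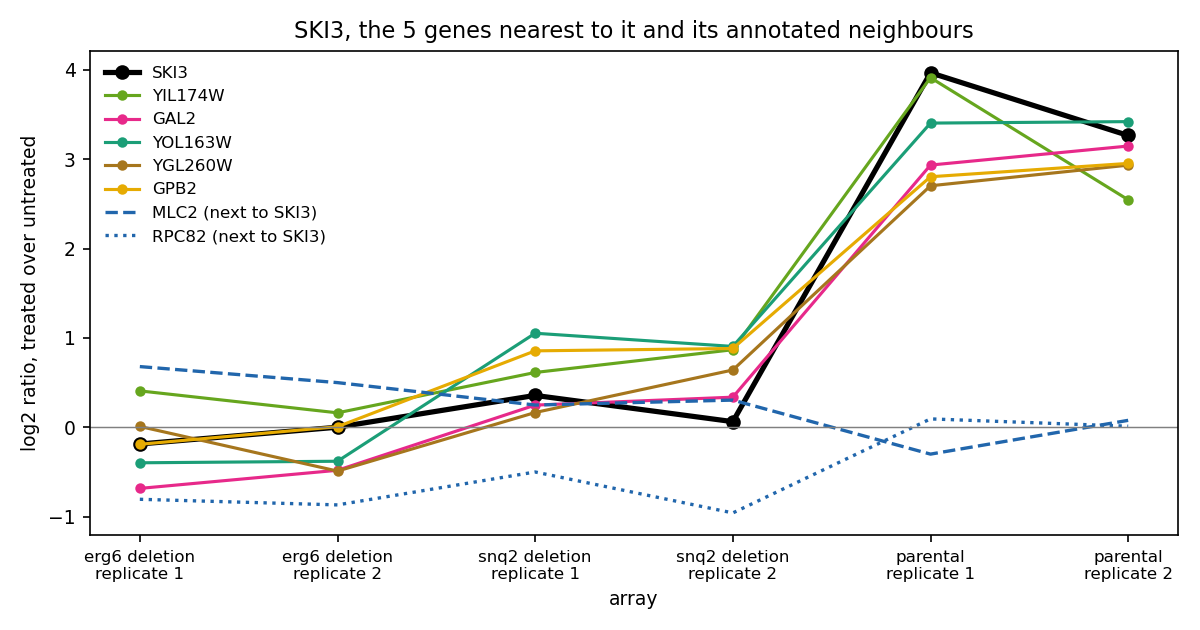
Log2 ratio of treated over untreated cells on each of the 6 arrays for SKI3 (black), the 5 annotated genes with the smallest distance to it (coloured) and the genes on either side of it (blue, dashed and dotted). The 6 solid lines lie above 2.5 on the parental arrays, while MLC2 and RPC82 stay below 0.1 there.

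Among the genes of decay from the 5′ end, XRN1 and DCP2 stood in the same order of strains, while DCP1 did not. XRN1, the exonuclease, had 1.02 and 0.21 on the arrays of the erg6 deletion, -0.11 and 0.040 on those of the snq2 deletion, and -1.30 and -0.81 on the parental arrays. It was lowest on the parental and highest on the arrays of the erg6 deletion, with no overlap between the 3 strains. The share of all genes without such overlap was not counted. Its mean of 0.61 ± 0.22 in the erg6 deletion strain did not pass (limma adjusted p = 0.0603, 0.0123 to 0.412). It did pass with centred arrays (0.72, adjusted p = 0.0393) and without replicate 2 of that strain (1.02, adjusted p = 0.0123). In the snq2 deletion strain the mean was -0.03 ± 0.22 and did not pass (adjusted p = 0.909, 0.810 to 0.965), and the parental mean was -1.06 ± 0.22, a ratio of 0.480.

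DCP2, the catalytic subunit of the decapping enzyme, had 0.19 and 0.65 on the arrays of the erg6 deletion, -0.40 and -0.55 on those of the snq2 deletion, and -0.84 and -0.85 on the parental arrays. The 3 strains did not overlap and stood in the order parental, snq2 deletion, erg6 deletion from low to high. As for XRN1, the share of all genes separated in this way was not counted. DCP2 rose by 0.42 ± 0.13 in the erg6 deletion strain (limma adjusted p = 0.0383, 0.0119 to 0.268), a call lost without replicate 2 of that strain (0.268), without any one array of the other strains (0.0692 to 0.0718) and in a fit to that strain alone (0.148). It fell by 0.47 ± 0.13 in the snq2 deletion strain (adjusted p = 0.0275, 0.00734 to 0.211), a call lost without replicate 1 (0.105) or 2 (0.211) of that strain or either parental array (0.0565 each). Its parental mean was -0.85 ± 0.13.

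DCP1, the cofactor of Dcp2, was the member above 0 on all 6 arrays. It had 0.37 and 1.07 on the arrays of the erg6 deletion, 0.62 and 0.53 on those of the snq2 deletion, and 0.59 and 0.72 on the parental arrays. The 3 strains overlapped. DCP1 rose by 0.72 ± 0.17 in the erg6 deletion strain (limma adjusted p = 0.0165, 0.00317 to 0.0973), a call lost when replicate 2 of that strain was left out (0.0615) or when that strain was fitted alone (0.0973). It rose by 0.57 ± 0.17 in the snq2 deletion strain (adjusted p = 0.0370, 0.00352 to 0.209), a call lost without replicate 1 (0.209) or 2 (0.174) of that strain or either parental array (0.0672 each). Its parental mean was 0.66 ± 0.17. The values of DCP1 and DCP2 thus had one sign in the erg6 deletion strain and opposite signs in the snq2 deletion and parental strains.

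Counted together, 3 of the 6 partners passed in the erg6 deletion response (DCP1 and DCP2 higher, SKI2 lower), where 54.7% of all genes passed, 23.2% higher and 31.5% lower. That split, 1476 genes higher and 2002 lower, became 1743 higher and 1578 lower with centred arrays. In the snq2 deletion response 4 of 6 passed (SKI2, SKI7 and DCP1 higher, DCP2 lower), where 51.5% of all genes passed, 25.3% higher and 26.2% lower. Both counts are near the background, and the count in the snq2 deletion strain was 0 without either array of that strain and 1 without either parental array. The count in the erg6 deletion strain was 1 in a fit to that strain alone.

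The difference between the 2 deletion strains was tested for the 6 partners. It takes no parental mean, although its standard error, like those of the deletion responses above, is pooled over all 6 arrays. SKI2 responded lower in the erg6 than in the snq2 deletion strain, by -0.88 ± 0.11 (limma adjusted p = 0.00279, 0.00243 to 0.0226 over 12 alternatives). SKI7 was lower by -0.58 ± 0.14 (adjusted p = 0.0181, 0.0166 to 0.0834), a call lost without erg6 deletion replicate 2 (0.0577) or snq2 deletion replicate 1 (0.0636) or 2 (0.0834). DCP2 was higher by 0.89 ± 0.18 (adjusted p = 0.0115, 0.00401 to 0.0702), a call lost without snq2 deletion replicate 2 (0.0702). SKI8 at -0.33 ± 0.27 did not pass (adjusted p = 0.346, 0.0793 to 0.938). DCP1 at 0.15 ± 0.24 did not pass (adjusted p = 0.632, 0.0468 to 0.833): without erg6 deletion replicate 1 it was 0.50 and passed, and without replicate 2 it was -0.20. XRN1 at 0.65 ± 0.31 did not pass (adjusted p = 0.136, 0.0184 to 0.434): without erg6 deletion replicate 2 it was 1.05 and passed, and without replicate 1 it was 0.24. In this comparison 49.6% of all genes passed, 23% higher and 26.5% lower, against 1 higher and 2 lower of the 6 partners. SKI3, described without a test, differed by -0.30 ± 0.26.

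The parental strain is the reference per the series text, and differences from it are given as a description. The erg6 deletion minus parental differences were -3.71 ± 0.26 for SKI3, -0.74 ± 0.11 for SKI2, -0.63 ± 0.14 for SKI7 and -0.58 ± 0.27 for SKI8. For the genes of decay from the 5′ end they were 1.67 ± 0.31 for XRN1, 1.27 ± 0.18 for DCP2 and 0.06 ± 0.24 for DCP1. SKI2, SKI7 and SKI8 were thus lower in the erg6 deletion than in the parental strain, and XRN1 and DCP2 higher. Over all genes the median of this difference was -0.13. SKI3 was selected on its parental ratio, so its lower value is no separate result. DCP1 was close to 0 and changed sign without erg6 deletion replicate 2 (-0.28). Of the 6 partners, 5 (all but DCP1) had one sign on both erg6 deletion arrays and the opposite sign on both parental arrays, a pattern of 40.2% of all genes. With centred arrays 4 partners had it (SKI8 no longer did), beside 39.6% of all genes. For the snq2 deletion strain, 0 of the 6 partners had opposite signs to the parental strain by this count, beside 22.3% of all genes (22.1% with centred arrays). The snq2 deletion minus parental differences were -3.40 ± 0.26 for SKI3, 1.02 ± 0.31 for XRN1 and 0.37 ± 0.18 for DCP2. Those of SKI2 (0.14 ± 0.11), SKI7 (-0.05 ± 0.14), SKI8 (-0.24 ± 0.27) and DCP1 (-0.08 ± 0.24) were small beside their standard errors or close to them. Both sets of differences share the parental arrays.

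**Figure D4:**
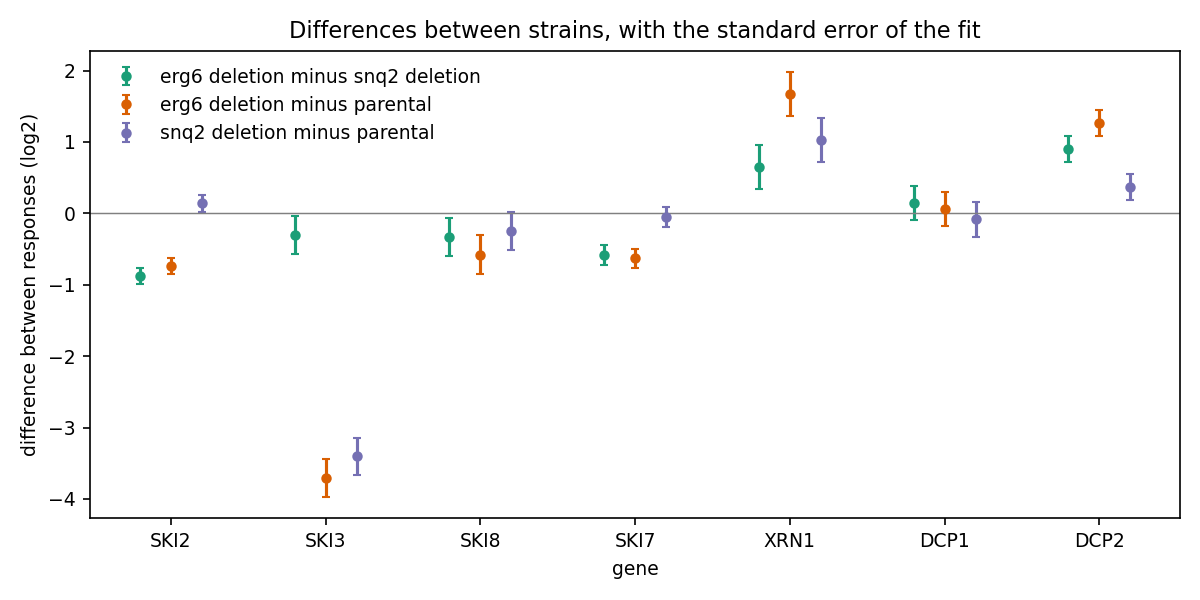
Difference between the responses of 2 strains on the log2 scale for each member: erg6 deletion minus snq2 deletion, erg6 deletion minus parental and snq2 deletion minus parental from left to right. Points are differences of means over 2 arrays each and bars the standard error of the fit. SKI3 lies at -3.71 and -3.40 against the parental strain and at -0.30 between the deletion strains.

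The other 59 genes of RNA decay and surveillance were counted in 7 lists, to be read beside the shares of all genes: 23.2% rose and 31.5% fell in the erg6 deletion response, and 25.3% rose and 26.2% fell in the snq2 deletion response. In the erg6 deletion response 10 of the 59 rose and 19 fell, with a median of -0.17 beside -0.11 over all genes. In the snq2 deletion response 11 rose and 20 fell, with a median of -0.16 beside -0.03. In the parental response 14 rose and 17 fell, with a median of -0.05 beside -0.02, where 54% of all genes passed, 27.3% higher and 26.7% lower. These 29, 31 and 31 calls became 16 in a fit to the erg6 deletion strain alone, 12 without snq2 deletion replicate 2, and 16 and 20 without parental replicates 1 and 2. Genes named below as called are among the most extreme called genes of their list and kept that call in all 12 alternatives. The lists were chosen with earlier results of these data known. The adjusted p-values of their genes are thus descriptions, not independent evidence, above all where they rest on the parental arrays.

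Of the 10 core exosome genes, 0 rose and 4 fell in the erg6 deletion strain, 1 rose and 4 fell in the snq2 deletion strain, and 1 rose and 2 fell in the parental strain. Their medians were -0.37, -0.28 and 0.00, in that order of strains. Without snq2 deletion replicate 2, 0 rose and 1 fell in the snq2 deletion response, and without either parental array 1 rather than 2 fell in the parental response. Without erg6 deletion replicate 2, 3 fell in the erg6 deletion response. In the erg6 deletion strain RRP46, a ring subunit, fell by 0.79 ± 0.08 and DIS3, the catalytic subunit, by 0.73 ± 0.10. RRP43, also of the ring, fell by 1.05 ± 0.11 in the snq2 deletion strain. In the parental strain CSL4, a cap subunit that is also known as SKI4, rose by 1.53 ± 0.13, with 1.61 and 1.46 on its arrays, while RRP40, another cap subunit, fell by 0.62 ± 0.09. CSL4 had -0.44 and -0.40 on the arrays of the erg6 deletion and 0.29 and -0.17 on those of the snq2 deletion, so it was high on the parental arrays alone. SKI6, which encodes the ring subunit Rrp41, had means of 0.30 in the erg6 deletion, -0.90 in the snq2 deletion and -0.05 in the parental strain.

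Of the 10 genes of nuclear exosome cofactors and nuclear decay, 0 rose and 5 fell in the erg6 deletion strain, 1 rose and 7 fell in the snq2 deletion strain, and 1 rose and 3 fell in the parental strain. Their medians were -0.38, -0.83 and -0.19. Leaving out replicate 2 of the strain in question, 3 fell in the erg6 deletion response and 3 in the snq2 deletion response, and in the parental response 1 fell without either parental array. RRP6, the nuclear exosome exonuclease, fell by 1.34 ± 0.15 in the snq2 deletion strain, with -1.15 and -1.53 on its arrays. MPP6, an exosome cofactor, fell by 1.28 ± 0.11 in the erg6 deletion strain, with -1.33 and -1.24, while it had 0.63 and 0.74 on those of the snq2 deletion and 0.72 and 0.40 on the parental arrays. MTR4, given above, fell by 3.37 ± 0.38 in the erg6 deletion strain.

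Of the 14 decapping activators, 3 rose and 5 fell in the erg6 deletion strain, 5 rose and 1 fell in the snq2 deletion strain, and 8 rose and 3 fell in the parental strain. Their medians were -0.10, 0.25 and 0.53. Without snq2 deletion replicate 1, 3 of them rose in that strain, and without replicate 2, 1 rose. In the parental response 4 rose and 1 fell without parental replicate 1, and 5 rose and 2 fell without replicate 2. LSM1, the subunit that marks the cytoplasmic Lsm ring, fell by 0.87 ± 0.10 in the erg6 deletion strain, as did LSM2 of that ring, by 0.81 ± 0.12. EDC3, an enhancer of decapping, rose there by 0.87 ± 0.18. LSM3 rose by 0.61 ± 0.09 in the snq2 deletion strain and LSM7 by 1.09 ± 0.09 in the parental strain. EDC2, another activator, fell by 1.28 ± 0.08 in the snq2 deletion and by 0.69 ± 0.08 in the parental strain.

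The 2 genes of cap scavenging differed in direction between the deletion strains and the parental strain. Among all genes, 40.2% had opposite signs on both erg6 deletion and both parental arrays. For the snq2 deletion and parental arrays it was 22.3%. DCS1, the hydrolase that clears the caps left by exosome decay, had 0.78 and 0.40 on the arrays of the erg6 deletion, 0.94 and 1.18 on those of the snq2 deletion, and -1.12 and -0.94 on the parental arrays. The 4 deletion arrays were above 0 and both parental arrays well below it. DCS1 rose by 1.06 ± 0.13 in the snq2 deletion strain (limma adjusted p = 0.00180) and fell by 1.03 ± 0.13 in the parental strain (adjusted p = 0.00172). Its erg6 deletion minus parental difference was 1.62 ± 0.18 (adjusted p = 0.00113) and its snq2 deletion minus parental difference 2.09 ± 0.18 (adjusted p = 0.00134). Without erg6 deletion replicate 1, 0 of these 2 genes rose in the erg6 deletion response, beside 2 with all arrays. DCS2, the paralog of DCS1, had 0.65 and 0.30 on the arrays of the erg6 deletion, 0.91 and 1.10 on those of the snq2 deletion, and -0.85 and -0.53 on the parental arrays. SKA1, whose product associates with the Ski complex, fell by 0.79 ± 0.11 in the parental strain (adjusted p = 0.00247), with -0.81 and -0.77, and the means of its deletion arrays were 0.09 (erg6) and 0.03 (snq2).

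Of the 12 deadenylation genes, 3 rose and 3 fell in the erg6 deletion strain, 2 rose and 4 fell in the snq2 deletion strain, and 3 rose and 3 fell in the parental strain. Without erg6 deletion replicate 1, 1 rose and 4 fell in the erg6 deletion response, and without replicate 2, 2 rose and 2 fell. Without snq2 deletion replicate 2, 0 rose and 2 fell in the snq2 deletion response, and without replicate 1, 1 rose and 4 fell. Without parental replicate 1, 1 rose and 3 fell in the parental response, and without replicate 2, 2 rose and 2 fell. PAN2, the catalytic subunit of one deadenylase, fell by 0.87 ± 0.08 in the erg6 deletion strain. PAB1, the poly(A)-binding protein gene, had 0.42 and 0.33 on the arrays of the erg6 deletion, -1.64 and -1.86 on those of the snq2 deletion, and -0.63 and -0.92 on the parental arrays. It fell by 1.75 ± 0.11 in the snq2 deletion and by 0.78 ± 0.11 in the parental strain. MOT2, a ubiquitin ligase gene of the Ccr4-Not complex, fell by 1.02 ± 0.10 in the snq2 deletion and by 1.43 ± 0.10 in the parental strain, where POP2, a deadenylase gene of that complex, rose by 0.75 ± 0.08.

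Of the 10 genes of surveillance and stalled ribosomes, 2 rose and 2 fell in the erg6 deletion strain, 0 rose and 4 fell in the snq2 deletion strain, and 1 rose and 3 fell in the parental strain. Without either snq2 deletion array 2 fell in the snq2 deletion response, and without either parental array 1 fell in the parental response. In the erg6 deletion response 1 fell without any one array of the other strains. NAM7, which encodes the nonsense-mediated decay helicase Upf1, had 0.58 and 0.73 on the arrays of the erg6 deletion, -1.33 and -1.75 on those of the snq2 deletion, and -0.61 and -0.60 on the parental arrays. It rose by 0.65 ± 0.12 in the erg6 deletion and fell by 1.54 ± 0.12 in the snq2 deletion strain. NMD2, its partner gene, rose by 0.86 ± 0.10 in the erg6 deletion and by 0.75 ± 0.10 in the parental strain, where UPF3 fell by 0.56 ± 0.09. HEL2, a ubiquitin ligase gene for collided ribosomes, fell by 1.11 ± 0.12 in the erg6 deletion strain. CUE2, the other gene counted as fallen there, had -0.93 and -4.42 and did not keep its call in all 12 alternatives. Its value of -4.42 is the one shared with CAF130.

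**Figure D5:**
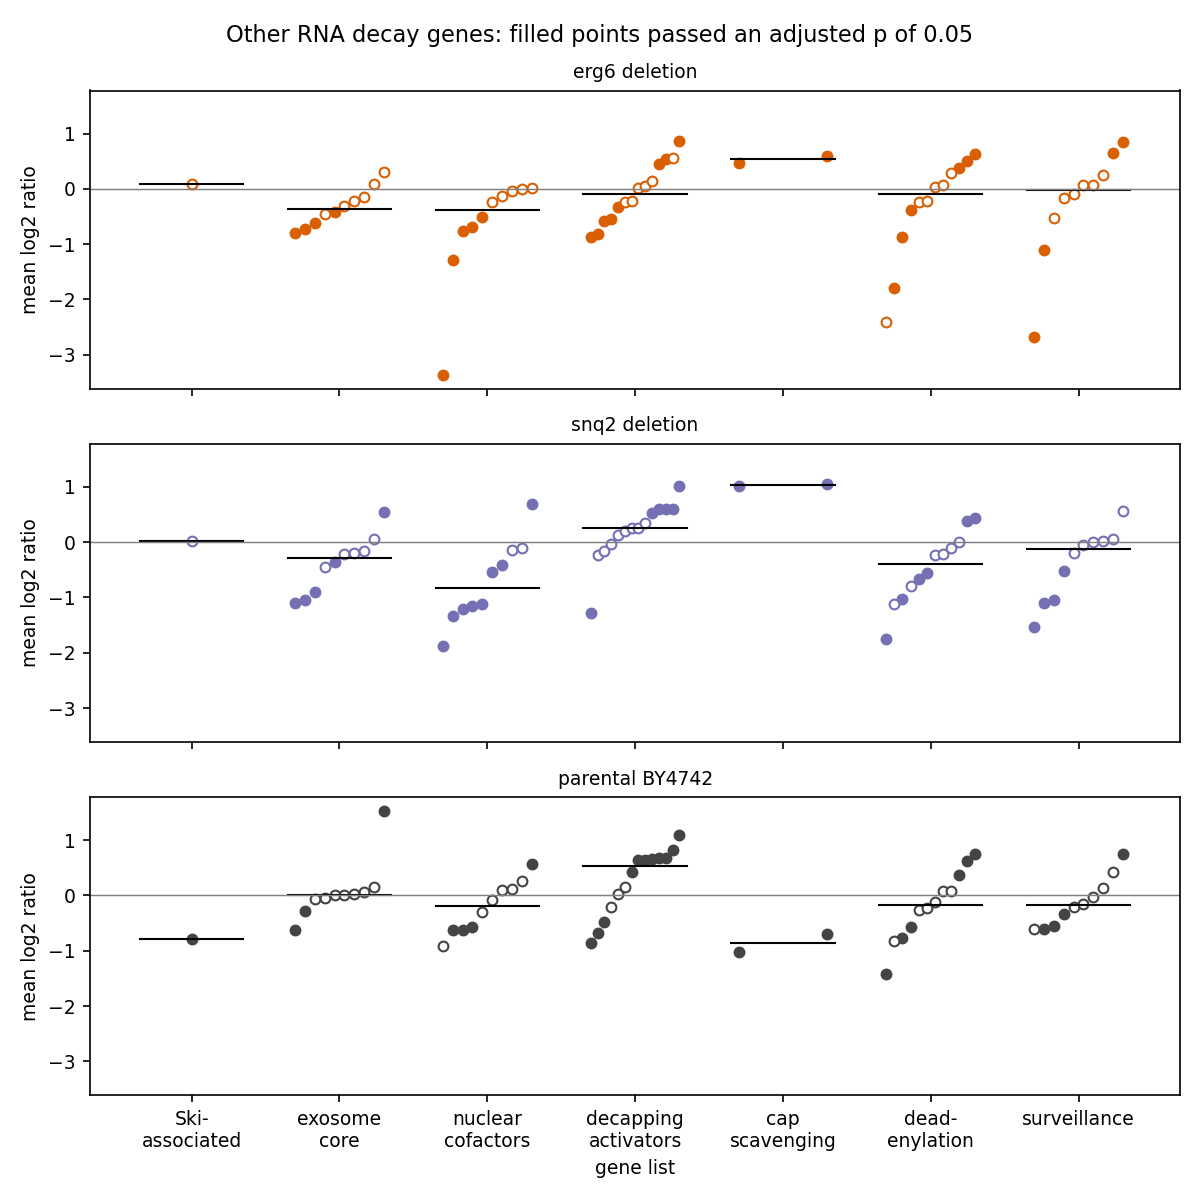
Mean log2 ratio of 2 arrays for 59 other genes of RNA decay in 7 lists, with the erg6 deletion, snq2 deletion and parental strains from top to bottom. Filled points passed an adjusted p of 0.05, open points did not, and black bars are list medians. The 2 cap scavenging genes lie above 0 in both deletion strains and below 0 in the parental strain.

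Between strains, 13 of the 59 genes were higher and 14 lower in the erg6 than in the snq2 deletion response. In that comparison 49.6% of all genes passed, 23% higher and 26.5% lower. In the erg6 deletion minus parental comparison 14 were higher and 17 lower, where 56.8% of all genes passed, 25.4% higher and 31.4% lower. In the snq2 deletion minus parental comparison 6 were higher and 17 lower, where 39.2% of all genes passed, 16.4% higher and 22.8% lower. The 31 calls of the erg6 comparison became 19 without parental replicate 1, and the 23 of the snq2 comparison 7 to 11 without any one of its own 4 arrays.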

How the data were processed

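The table deposited by the authors holds, for each of 7045 features, 1 signed ratio per array, taken here as log2. Per the labels, slides were scanned on a GenePix 4000B. No label or header records the background correction, the normalization, the log base or the direction. The 683 Blank and empty spots were kept out of the gene tests. Of 6362 genes, 5826 matched a locus tag of the RefSeq table of assembly R64, used for names and neighbours.

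All 6 arrays entered a linear model with a mean for each strain (lmFit and eBayes of limma 3.58.1 under R 4.3.3), which left 3 residual degrees of freedom beside 2.45 from the prior. The Benjamini-Hochberg adjustment covered 6362 genes, separately in 6 contrasts, and calls were made at an adjusted p of 0.05. Values after ± are standard errors. The number of arrays limits the precision. The fit was run on simulated independent normal values, without dye bias, floored values or shifts between arrays. That run cannot show how the fit performs where those are present. Members and lists were chosen with earlier results of these data known. Named genes are the members, up to 2 highest and 2 lowest called genes per list and contrast, the 5 genes nearest to SKI3, its neighbours, ERG6, SNQ2, HBS1 and MTR4. That the pathway genes named as called should keep their call in all 12 alternatives was added after their values were seen, and SKI6, DCS2 and some values of named genes in other strains are given for comparison. The 12 alternatives were centred arrays, quantile normalization, a replicate block, robust eBayes, matched genes alone, the compared strains alone, and each of 6 arrays left out. With 1 array left, a strain is assumed to vary like the others. A promoter motif search was not run, since no sequence was used here.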

Additional observations from a re-analysis of the deposited data

Results flagged for a closer look

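Between the erg6 and the snq2 deletion strain, the test of the difference passed for 3 of the 6 partners of SKI3. This is near the share of all genes that passed, 49.6%. SKI2 was at -0.88 and SKI7 at -0.58, lower in the erg6 deletion strain, and DCP2 was at 0.89, higher in it. SKI2 kept the call in all 12 alternatives, SKI7 lost it in 3 and DCP2 in 1. Of the other decay genes, those given here kept the call in all 12. Higher values in the erg6 deletion strain were found for NAM7 (2.19), PAB1 (2.12), RRP6 (1.36), DOM34 (1.30), MOT2 (1.30), SKI6 (1.19), EDC2 (1.06) and RRP43 (0.90). DOM34 acts in the release of stalled ribosomes. Lower values were found for MPP6 (-1.97), LSM2 (-1.16), LSM6 (-1.09) and PAN2 (-0.65).

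Against the parental strain, further genes passed than are given here, which are those named by the fixed rule whose call held in all 12 alternatives. In both deletion strains, erg6 before snq2, these were DCS1 (1.62 and 2.09), DCS2 (1.16 and 1.70), CSL4 (-1.95 and -1.47), LSM7 (-1.64 and -0.97) and POP2 (-0.68 and -0.75). In the erg6 deletion strain they were also MOT2 (1.71), NAM7 (1.26), NOT5 of the Ccr4-Not complex (1.20), SKA1 (0.88), MPP6 (-1.85), LSM2 (-1.48), HEL2 (-0.90) and DIS3 (-0.89). In the snq2 deletion strain PAB1 was the other one (-0.97).

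Of the 6 partners, 5 had one sign on both erg6 deletion arrays and the opposite sign on both parental arrays, with erg6 deletion minus parental differences of -0.74 for SKI2, -0.58 for SKI8, -0.63 for SKI7, 1.67 for XRN1 and 1.27 for DCP2. These differences were not tested. The sign pattern was shared by 40.2% of all genes, and SKI8 lost it with centred arrays.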

How the results depend on the processing

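Of 588 alternative values of members and counts, 520 kept their direction and their side of the threshold or stayed within the replicate spread or 1.5 times the count. Fitting the erg6 deletion strain alone lowered the calls in its response to 1946 genes, 16 pathway genes and 1 partner. With quantile normalization SKI3 had 2.90 in the parental response, -2.93 in the erg6 deletion minus parental and -2.68 in the snq2 deletion minus parental comparison, and SKI8 in the snq2 deletion response turned to -0.0098. Centring the arrays changed the genes higher and lower in the erg6 deletion response to 1743 and 1578, beside 1476 and 2002.

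Leaving out 1 array at a time gave 1672 to 3656 genes, 12 to 36 pathway genes and 0 to 4 partners called in the snq2 deletion response, and 1914 to 3829 genes and 16 to 34 pathway genes in the parental response. It gave 1952 to 3095 genes and 1 to 4 partners between the deletion strains, 19 to 35 pathway genes for erg6 deletion minus parental, and 1202 to 2889 genes and 7 to 26 pathway genes for snq2 deletion minus parental. Among the tested values of members, those that changed sign ran from -0.12 to 0.16 for SKI8 and from -0.11 to 0.040 for XRN1 in the snq2 deletion response, and from -0.20 to 0.50 for DCP1 between the deletion strains. Among the untested values, sign changes within the replicate spread ran from -0.19 to 0.0021 for SKI3 in the erg6 deletion response (0.016 with centred arrays), from -0.28 to 0.41 for DCP1 in the erg6 deletion minus parental and from -0.15 to 0.051 for SKI7 in the snq2 deletion minus parental comparison. With quantile normalization that SKI7 value was 0.019 and the DCP1 value of the same comparison 0.021. The cause of these changes was not tested.

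Replicate numbers are shared between strains, but same-numbered arrays did not deviate together (r = -0.0020, 0.095 and -0.042 across genes for the 3 pairs of strains). These correlations cannot show whether same-numbered arrays have more in common than a number. With the replicate block, 3306, 3103 and 3251 genes passed in the erg6 deletion, snq2 deletion and parental responses, and among members the calls of DCP2 in the erg6 deletion (adjusted p = 0.0590) and SKI2 in the snq2 deletion response (0.0522) were lost.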
